A study of Homo sapiens with 6 samples.

Results

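The nuclear genes that encode the mitochondrial respiratory chain and the ATP synthase were compared between cells given a TBK1 inhibitor and cells given vehicle. Members were the array probes whose gene symbol in the platform annotation starts with NDUF, UQCR, ATP5 or COX followed by a digit, or is SDHA, SDHB, SDHC, SDHD, CYC1 or CYCS. After 3 pseudogene probes were dropped and 1 probe for a noncoding RNA (NDUFB2-AS1) was set aside, 139 probes of 101 genes were left, among 20045 genes with a symbol on the array. Of these, 93 genes passed the filter on dim probes and are called measured here, among 11582 measured genes in all. Of the measured members, 88 were detected on all 6 arrays, and ATP5MK passed the filter through the vehicle arrays alone.

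The study measured total RNA on Illumina HumanHT-12 V4.0 arrays, on which each probe reports one transcript region by its brightness. The inhibitor group held 3 samples of cells labelled HCC1954, treated for 3 days with the compound that the labels call TBK1 inhibitor II. The vehicle group held 3 samples of the same labelled cells, kept for 3 days with vehicle only. HCC1954 is an established HER2-positive breast cancer line, and TBK1 is a kinase of innate immune and survival signalling. The labels name 1 cell line and give no dose, so the differences below hold for these samples at that time.

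The labelled identity was set against marker genes. The array held 15 luminal epithelial markers, of which 7 gave signal on every one of the 6 arrays and 4 (KRT7, KRT19, CLDN3 and GRB7) on 0. Of 6 mesenchymal or neural markers, 4 (VIM, CDH2, NEFL and NEFM) were detected on all 6 arrays and ZEB1 on 0. The 7 luminal markers had mean log2 levels from 6.2 (CDH1) to 8.4 (ERBB2). Those of NEFL, CDH2, NEFM and VIM were 7.1, 10.3, 11.1 and 12.5. The absence of KRT7, KRT19 and GRB7 signal goes against the label, so the samples are called cells labelled HCC1954. The median probe signal was 110.7, 117.3 and 130.7 on the inhibitor arrays, against 98.5, 101.7 and 138.1 on the vehicle arrays, and 19676 to 20741 probes were detected on the inhibitor arrays, against 18325 to 20127 on the vehicle arrays.

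Electrons from NADH enter the chain at complex I and electrons from succinate at complex II. They pass through ubiquinone to complex III, through cytochrome c to complex IV, and finally to oxygen, while complexes I, III and IV pump protons across the inner membrane. Complex V, the ATP synthase, lets the protons back and makes ATP. A few subunits are encoded in mitochondrial DNA and were not measured on this array. Assembly factors build the complexes and do not stay in them.

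Promoter sequences are shown for 3 members to illustrate the letters searched for. COX19 is 1 of the 2 members that changed (the promoter of the other, COX11, is not shown), COX17 is a copper chaperone that acts in the same step of complex IV assembly, and CYCS encodes cytochrome c. Each line gives the 250 bases before the transcription start from RefSeq (GRCh38.p14), 5′ to 3′ on the gene's strand, and capitals mark matches to the motifs described next. The regions are chr7:975550-975799 for COX19, chr3:119677407-119677656 for COX17 and chr7:25125261-25125510 for CYCS, all on the minus strand.
COX19: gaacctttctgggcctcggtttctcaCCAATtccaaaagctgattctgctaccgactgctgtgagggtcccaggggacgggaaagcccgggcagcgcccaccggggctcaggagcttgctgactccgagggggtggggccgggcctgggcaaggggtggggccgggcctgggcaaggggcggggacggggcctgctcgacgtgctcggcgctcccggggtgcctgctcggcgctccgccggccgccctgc
COX17: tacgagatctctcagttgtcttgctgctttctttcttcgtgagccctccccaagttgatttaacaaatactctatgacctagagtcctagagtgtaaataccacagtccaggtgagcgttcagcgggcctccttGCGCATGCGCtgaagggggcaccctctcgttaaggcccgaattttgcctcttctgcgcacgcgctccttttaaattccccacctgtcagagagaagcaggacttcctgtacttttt
CYCS: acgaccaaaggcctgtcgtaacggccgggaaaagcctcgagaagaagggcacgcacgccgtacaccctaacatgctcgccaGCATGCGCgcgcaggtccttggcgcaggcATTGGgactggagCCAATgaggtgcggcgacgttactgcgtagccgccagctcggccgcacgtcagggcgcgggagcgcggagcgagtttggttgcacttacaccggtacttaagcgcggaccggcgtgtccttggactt

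The motifs searched were GCGCATGC, the core of the site of the respiratory regulator NRF1, CCGGAAG for ETS factors such as GABP, AAGATGGCG for YY1, and CCAAT, the box bound by NF-Y. Both strands were read over 300 bases, from 250 before to 50 after the start, and letters may be shared between motifs. COX19 held 1 CCAAT match in the printed bases and no NRF1-like match. COX17 held 2 overlapping NRF1-like matches, 1 on each strand, and CYCS held 1 NRF1-like and 2 CCAAT matches.

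Promoters were found for 84 of the 101 members. The NRF1-like letters were in 17 of them (20.2%), against 5.76% of the 9355 promoters of all genes tested and 3.27% of all 27305 promoters in the table. The ETS-like letters were in 23 (27.4%), against 19.2% and 10.7%, and the YY1-like letters in 8 (9.52%), against 4.05% and 1.85%. CCAAT was in 32 (38.1%), close to the 37.2% and 35.7% of the wider sets. A match describes the letters and is not evidence of binding.

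**Figure D1:**
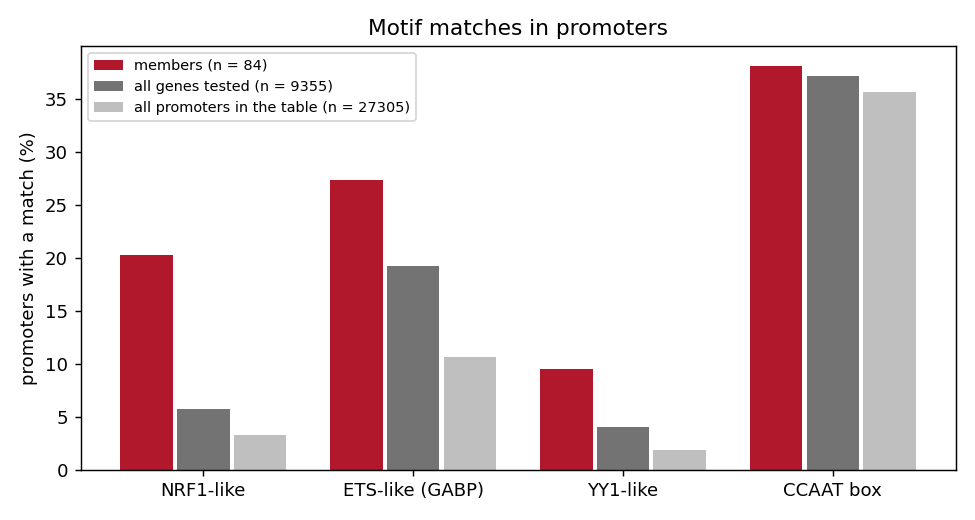
Share of promoters (%, vertical axis) with at least 1 match to each motif, for members (n = 84), all genes tested (n = 9355) and all promoters in the table (n = 27305). The NRF1-like letters are in 20.2% of member promoters and in 5.76% and 3.27% of the wider sets, while the CCAAT bars lie close together.

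Among the measured members, 2 rose with the inhibitor (COX11 and COX19) and 0 fell at an adjusted p under 0.05 (limma, Benjamini-Hochberg over 11582 genes). That is 2.15% of 93 members, against 5.45% of all genes called in either direction, 3.59% higher and 1.86% lower. At an unadjusted p under 0.05 there were 7 members (7.53%), against 24.4% of all genes. The members' log2 fold changes, inhibitor over vehicle, had a median of -0.08, against 0.03 for all genes, with 61 of 93 below 0. With median centring in place of quantile normalization, the median of the members was 0.09, against 0.24 for all genes, with 21 of 93 below 0, and the split of calls over all genes was 675 higher and 36 lower in place of 416 and 215. So the sign of the members' median, and each count below 0 given for a complex, depends on the scaling, while 66 members lay below the median of all genes with quantile normalization and 68 with median centring. The members' fold changes were also closer together, with an SD of 0.24 against 0.39 for all genes. In 60 members (64.5%) the 95% confidence interval lay within 1.5-fold in either direction, against 34.5% of all genes. The 3 inhibitor arrays did not overlap the 3 vehicle arrays in 19 members (20.4%), against 31.5% of all genes. ATP5MK, kept through the vehicle arrays alone, is in the 19, in the 7 and in the counts below 0.

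**Figure D2:**
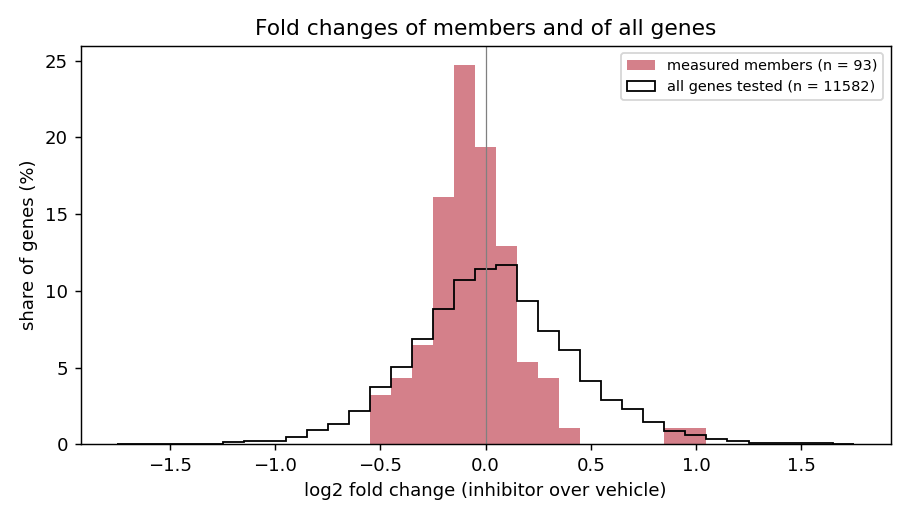
Share of genes (%, vertical axis) by log2 fold change, inhibitor over vehicle (horizontal axis), for 93 measured members (filled) and 11582 genes tested (line), of which 8 lie outside the axis. The members centre at -0.08 with 2 genes near 1, and the line for all genes is wider.

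Complex I takes electrons from NADH. None of its 43 measured members passed the threshold, and 31 were below 0 (10 with median centring), with a median of -0.11. The 6 measured core subunits, which hold the flavin and iron-sulphur centres, lay near the vehicle level with a median of 0.04 and 5 of 6 above 0. NDUFS1, the largest iron-sulphur subunit, was highest at 0.27 ± 0.22 (SE, adjusted p = 0.494), and NDUFS8, another iron-sulphur subunit, was lowest at -0.14 ± 0.15 (adjusted p = 0.610). The values of NDUFS1 were 5.90, 5.50 and 5.82 (log2) on inhibitor arrays, against 5.73, 5.0 and 5.66 on vehicle arrays, so the groups overlapped.

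The 29 measured accessory subunits, which surround the core, had 23 below 0 (8 with median centring), a median of -0.11 and a range of -0.43 to 0.27. NDUFA6, an accessory subunit of the matrix side, was lowest, at 8.55, 8.35 and 8.48 on inhibitor arrays, against 8.98, 8.82 and 8.89 on vehicle arrays. Its difference of -0.43 ± 0.15 missed the threshold (adjusted p = 0.119), although the groups did not overlap. NDUFA9, which contacts the quinone-binding region and was picked out after its values were seen, read 10.03, 10.33 and 10.08 on inhibitor arrays, against 10.75, 10.51 and 10.46 on vehicle arrays, a difference of -0.42 ± 0.17 (adjusted p = 0.159). Its groups did not overlap either. NDUFA2 was highest, at 12.29, 12.41 and 12.24 on inhibitor arrays, against 11.99, 12.19 and 11.93 on vehicle arrays (0.27 ± 0.15, adjusted p = 0.311).

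Of 8 assembly factors of complex I, 7 were below 0 (2 with median centring), with a median of -0.14. NDUFAF8, which acts with NDUFAF5, was lowest at 6.81, 6.67 and 6.49 on inhibitor arrays, against 7.49, 6.98 and 7.09 on vehicle arrays. The difference was -0.53 ± 0.18 (adjusted p = 0.122), and the groups did not overlap. NDUFAF2 was highest at 0.15 (adjusted p = 0.585). NDUFAF7, a methyltransferase that modifies a core subunit, had 3 measured probes that disagreed: 0.65 (unadjusted p = 0.0390) on one, and -0.15 and -0.17 on the others. Averaged over the class, each array's deviation from the genes' 6-array means was -0.131, -0.018 and -0.090 on inhibitor arrays, against 0.073, 0.075 and 0.091 on vehicle arrays. All 3 inhibitor values lay below all 3 vehicle values. The same held for the accessory subunits (-0.129 to -0.007 on inhibitor arrays, against 0.025 to 0.098 on vehicle arrays). It also held for the membrane and stalk subunits of complex V (-0.131 to -0.021, against 0.032 to 0.104). That class includes ATP5MK, which passed the filter through the vehicle arrays alone, so no direction is read from its separation. Over all genes tested the groups separated the other way (0.016 to 0.023, against -0.050 to 0.004). These deviations are from quantile normalized values. With median centring the median fold change was 0.10 for complex I assembly factors, 0.04 for accessory subunits and 0.03 for membrane and stalk subunits. It was 0.24 for all genes. So these class medians stayed below that of all genes, while their sign depended on the scaling.

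Complex II is succinate dehydrogenase, which also belongs to the citric acid cycle. Its 3 measured subunits were all below 0 (2 with median centring), and none passed the threshold. The symbols above also include SDHB, for which no member probe was found. SDHD, a membrane anchor, read 10.71, 10.996 and 10.78 on inhibitor arrays, against 11.17, 11.14 and 11.22 on vehicle arrays, a difference of -0.35 ± 0.15 (adjusted p = 0.201). SDHA, the flavoprotein, differed by -0.25 ± 0.19 (adjusted p = 0.473) and its groups overlapped. SDHC, the other anchor, differed by -0.12 on its brightest probe and by -0.57 (unadjusted p = 0.010) on a second probe, which was picked out after its value was seen.

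Complex III passes electrons from ubiquinol to cytochrome c. None of its 9 measured members passed the threshold, and 5 were below 0 (1 with median centring). UQCR10, a small subunit, was highest at 10.07, 10.05 and 9.88 on inhibitor arrays, against 9.54, 9.90 and 9.36 on vehicle arrays (0.40 ± 0.18, adjusted p = 0.212), with inhibitor replicate 3 below vehicle replicate 2. Its other probes gave 0.16 and -0.07. UQCR11, another small subunit, was lowest at -0.33 ± 0.17 (adjusted p = 0.260). CYC1, cytochrome c1, differed by -0.10 ± 0.20 (adjusted p = 0.788). UQCRH and its near-identical copy UQCRHL differed by 0.14 and -0.14, a second UQCRH probe gave -0.17, and their probes may read both transcripts. CYCS, whose promoter is printed above, read 6.19, 6.31 and 6.50 on inhibitor arrays, against 6.94, 5.98 and 6.13 on vehicle arrays. Its difference was -0.02 ± 0.25 (adjusted p = 0.970), and vehicle replicate 1 stood above all other arrays.

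**Figure D3:**
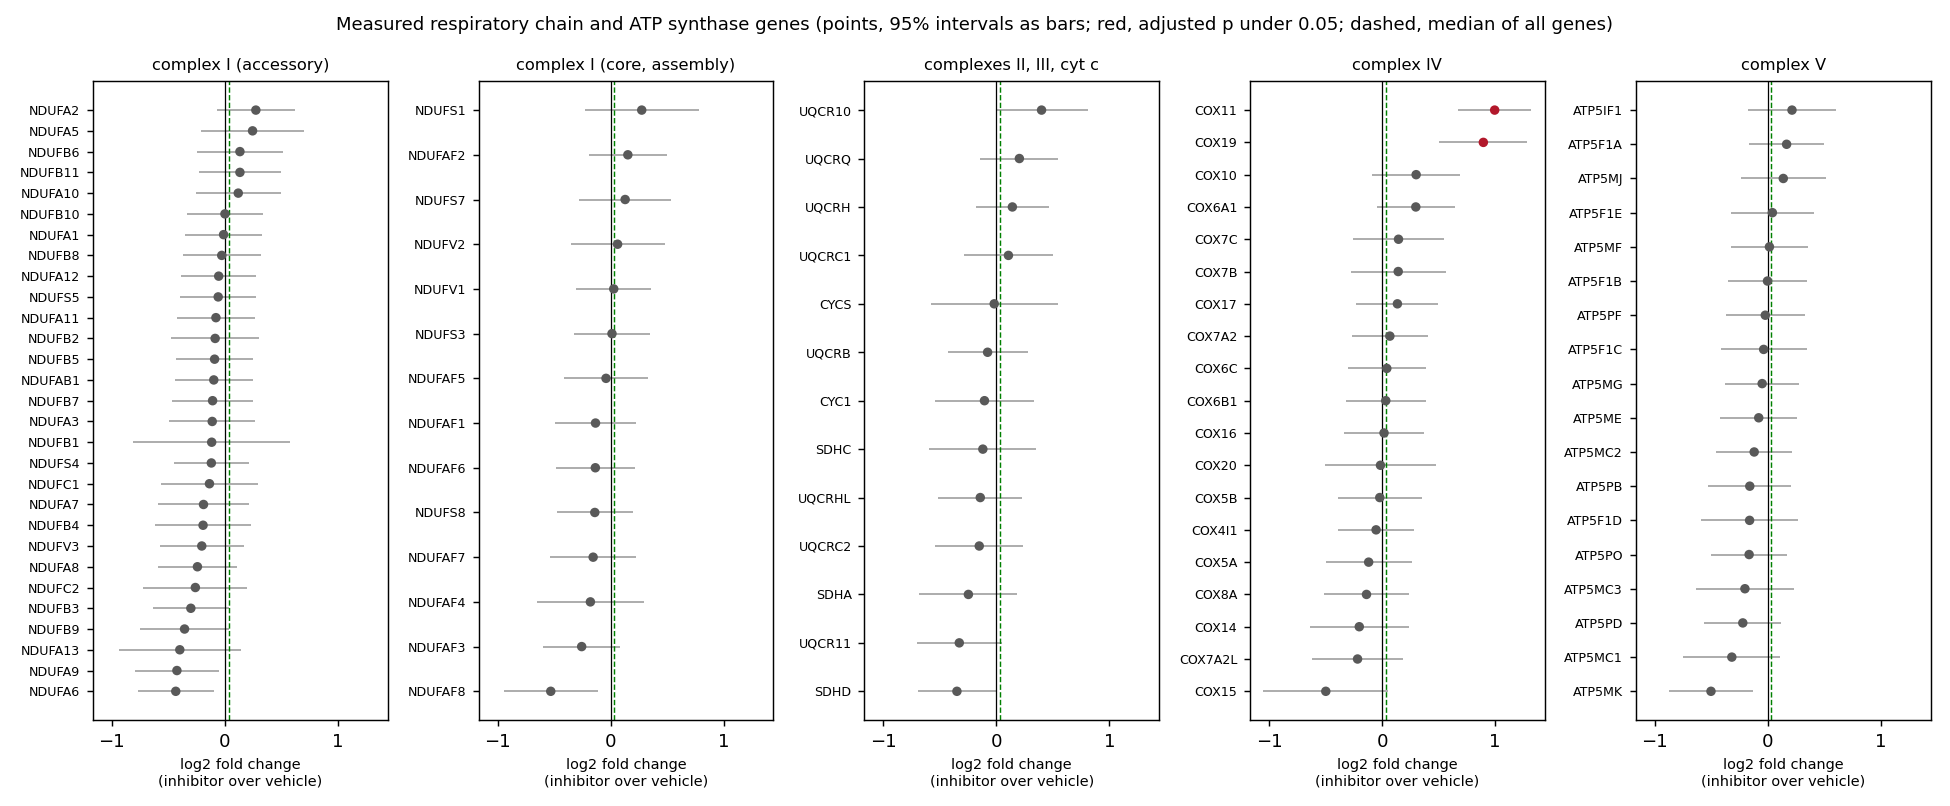
Log2 fold change of each measured member, inhibitor over vehicle (horizontal axis), by complex, with bars for 95% confidence intervals. COX11 at 1.00 and COX19 at 0.90 are the coloured points past the threshold, and the rest lie between -0.53 and 0.40.

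Complex IV, cytochrome c oxidase, reduces oxygen. None of its 10 measured subunits passed the threshold, with a median of 0.04 and 9 of 10 intervals within 1.5-fold. COX6A1 was highest, at 12.38, 12.58 and 12.43 on inhibitor arrays, against 12.05, 12.25 and 12.19 on vehicle arrays (0.30 ± 0.15, adjusted p = 0.264). COX8A was lowest at -0.14 ± 0.17 (adjusted p = 0.660). COX4I1, the common form of the regulatory subunit 4, differed by -0.05 ± 0.15 (adjusted p = 0.865), COX6B1 by 0.03 ± 0.16 (adjusted p = 0.922) and COX7A2 by 0.07 ± 0.15 (adjusted p = 0.817).

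Several subunits of complex IV have a second gene used in few tissues. COX4I2, COX6A2, COX7A1, COX7B2 and COX8C were detected on 0 arrays. COX6B2, a testis form, was detected on 2 vehicle arrays at most and on 0 inhibitor arrays. In all 6 of these pairs the common gene was detected on all 6 arrays. The assembly factor COX18 and the complex I accessory subunit NDUFS6 were also detected on 0 arrays, which makes 8 members not measured.

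The assembly factors of complex IV held both genes that rose. COX11 delivers copper to the catalytic subunit. Its probe read 8.20, 8.18 and 8.08 on inhibitor arrays, against 7.14, 7.20 and 7.14 on vehicle arrays. All 3 inhibitor values lay above all 3 vehicle values, and the log2 fold change was 1.00 ± 0.14 (SE, n = 3 each, adjusted p = 0.0172), or 1.99-fold. COX19 is a small intermembrane space protein that works with COX11. Its probe read 7.18, 6.96 and 6.86 on inhibitor arrays, against 6.12, 5.89 and 6.29 on vehicle arrays, again without overlap. The log2 fold change was 0.90 ± 0.17 (adjusted p = 0.0293), or 1.86-fold. Both sizes depended on the processing. With no background correction the differences were 0.68 for COX11 and 0.45 for COX19. With the deposited processed values they were 0.62 and 0.38, and with median centring 1.29 and 1.15. Both calls depended on the samples kept. Leaving out any 1 inhibitor sample put the adjusted p between 0.0599 and 0.0977 for COX11 and between 0.0897 and 0.115 for COX19, and leaving out vehicle replicate 2 put it at 0.0511 for COX19.

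Markers of other cell types were read on the same arrays. Of 11 leukocyte, endothelial and fibroblast markers on the array, 6 were detected on 0 arrays and 5 were measured. Their mean deviation was 0.213 to 0.260 on inhibitor arrays, against -0.302 to -0.205 on vehicle arrays. DCN, a fibroblast matrix gene, rose by 1.29 (adjusted p = 0.0198), and the other 4 did not pass the test. The DCN probe was dim, with a signal of 99.2, 115.6 and 164.9 on vehicle arrays, and was not detected on vehicle replicate 1. Its difference was 0.52 with no background correction and 0.41 with the deposited processed values. The call of DCN was lost on leaving out any 1 inhibitor sample (adjusted p = 0.0732 to 0.106). The 4 measured mesenchymal or neural markers had a mean deviation of -0.095 to -0.059 on inhibitor arrays, against 0.070 to 0.089 on vehicle arrays, and 0 of them passed the test. Among these, VIM differed by -0.46 without overlap (adjusted p = 0.0998). Their part in the COX11 and COX19 results was not tested. In bulk RNA, a change in the make-up of the cells and a change per cell cannot be told apart.

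The other assembly factors of complex IV did not pass the threshold. Of all 9 in the class, 3 had an interval within 1.5-fold. COX17, which hands copper on in the intermembrane space, read 12.41, 12.28 and 12.18 on inhibitor arrays, against 11.98, 12.31 and 12.17 on vehicle arrays (0.14 ± 0.16, adjusted p = 0.653). COX10 and COX15 make the haem of the enzyme. COX10 differed by 0.30 ± 0.17 (adjusted p = 0.314) without overlap, and COX15 by -0.50 ± 0.24 (adjusted p = 0.246), with inhibitor replicate 1 at 7.84, above all 3 vehicle arrays. COX14, COX16, COX20 and the supercomplex factor COX7A2L lay between -0.22 and 0.02. STXBP4, whose annotated span meets that of COX11 at one end, differed by 0.29 ± 0.25 (adjusted p = 0.532).

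**Figure D4:**
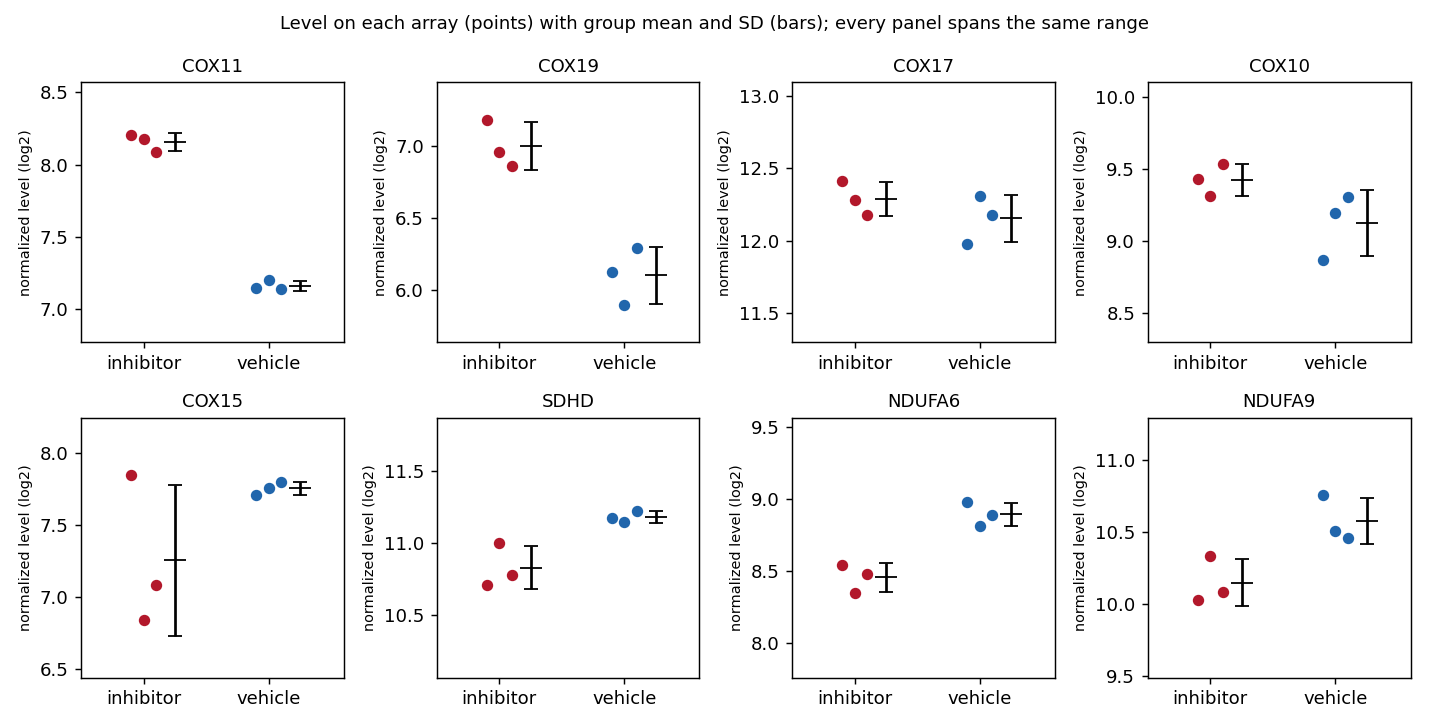
Normalized log2 level on each array (points) for selected members, with group mean and SD (bars) for 3 inhibitor and 3 vehicle samples. For COX11 and COX19 every inhibitor point lies above every vehicle point.

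Complex V makes ATP. None of its 18 measured members passed the threshold, and 13, ATP5MK among them, were below 0 (6 with median centring). The 5 subunits of the catalytic head had a median of 0.00. ATP5F1A, the alpha subunit, differed by 0.17 ± 0.15 (adjusted p = 0.537), and ATP5F1B, the catalytic beta subunit, read 14.30, 14.61 and 14.49 on inhibitor arrays, against 14.42, 14.46 and 14.53 on vehicle arrays, with an adjusted p of 0.995. ATP5F1D, the delta subunit, was lowest of the head at -0.16 (adjusted p = 0.655), while its second probe gave -0.79 (unadjusted p = 0.00607), picked out after its value was seen.

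Of 12 membrane and stalk subunits, 10 were below 0 (5 with median centring), with a median of -0.14. ATP5MK is among them. With detection p under 0.01 required on all 6 arrays, which drops ATP5MK, 9 of 11 were below 0, with a median of -0.12. ATP5MC1, ATP5MC2 and ATP5MC3 encode the same ring protein and differed by -0.32, -0.12 and -0.20 (adjusted p = 0.339, 0.670 and 0.563). The probes of ATP5MC2 disagreed, at -0.72 (unadjusted p = 0.0167) and 0.01 on the other probes. ATP5MK, a small membrane subunit, was detected on 0 of 3 inhibitor arrays and 3 of 3 vehicle arrays. It read 4.65, 4.79 and 4.75 on inhibitor arrays, against 5.46, 5.05 and 5.19 on vehicle arrays, and did not pass the test. Since it was kept through the vehicle arrays alone, no direction is read from it. ATP5MJ was highest at 0.14 (adjusted p = 0.663). ATP5IF1, the protein that blocks ATP hydrolysis, differed by 0.21 ± 0.17 (adjusted p = 0.494) on its brightest probe and by -0.12 on a second.

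**Figure D5:**
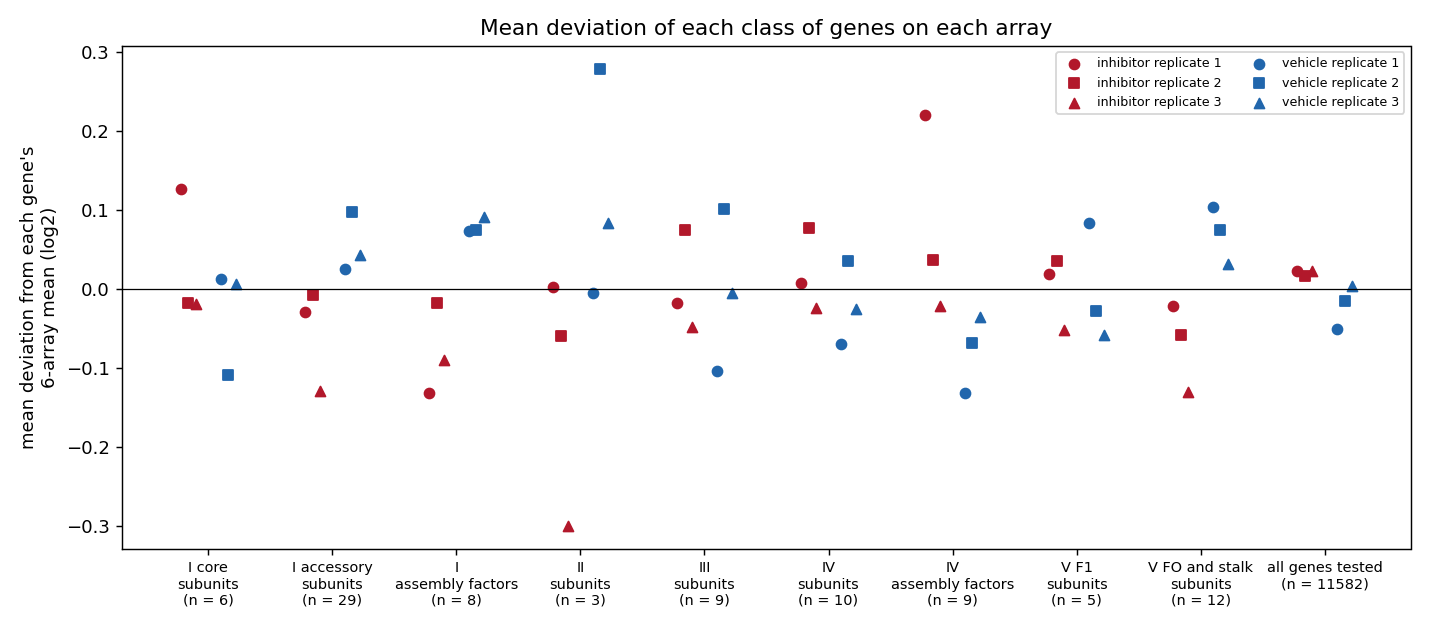
Mean deviation (log2, vertical axis) of each class of members from the genes' 6-array means on each of 3 inhibitor and 3 vehicle arrays. Levels are quantile normalized, and with median centring the median fold changes of the classes named here lay above 0. For complex I assembly factors the inhibitor points lie at -0.131 to -0.018 and the vehicle points at 0.073 to 0.091. The inhibitor points also lie below the vehicle points for complex I accessory subunits and complex V membrane and stalk subunits, which include ATP5MK. They lie above the vehicle points for complex IV assembly factors and for all genes tested. The complex IV assembly factors include COX11 and COX19, and this class had a median of 0.02 with 4 of 9 below 0.

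By role, 0 of 74 subunits and 2 of 17 assembly factors and related genes rose, against 3.59% of all genes, and this difference between roles was not tested. COXFA4, the complex IV gene with the older symbol NDUFA4, is outside the symbols above and differed by 0.23 (adjusted p = 0.410). Members with an NRF1-like match had a median of -0.04 over 15 measured genes, against -0.05 over 63 measured genes without one. Of 23 members with several measured probes, 13 had all probes on one side of 0 and 10 did not.

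Other mitochondrial genes were read from lists. Of 35 measured assembly factors outside the symbols above, 0 passed the threshold in limma. An unadjusted p under 0.05 was found for 10 (28.6%), against 24.4% of all genes. Among them, UQCC2 of complex III assembly (-0.68, adjusted p = 0.0529) and the copper chaperone SCO2 (-0.51, adjusted p = 0.0770) had the smallest p. Of 16 measured regulators, 0 passed the threshold in limma and 5 (31.2%) had an unadjusted p under 0.05, also near the 24.4% of all genes. The list had 11 below 0 and a median of -0.15 with quantile normalization. Both depend on the scaling, since the median of all genes was 0.03 there and 0.24 with median centring. The 5 were POLG, the mitochondrial DNA polymerase (0.80, adjusted p = 0.0529), the coactivator PPARGC1A (0.64, adjusted p = 0.0701), the mitochondrial transcription factor TFB2M (-0.53, adjusted p = 0.0873), its relative TFB1M (-0.41, adjusted p = 0.197) and GABPB1, a subunit of GABP (-0.33, adjusted p = 0.197). TFAM, the mitochondrial transcription factor, differed by -0.08 (adjusted p = 0.825), and NRF1 was not measured, with detection on 2 arrays at most. Of 15 citric acid cycle genes, SUCLG2, a succinyl-CoA ligase subunit, fell by 0.72 on the log2 scale (adjusted p = 0.0316). Its values were 9.31, 9.21 and 9.38 on inhibitor arrays, against 9.95, 10.03 and 10.09 on vehicle arrays. Of 17 genes of mitochondrial mass and transport, PHB2, an inner membrane scaffold, fell by 0.67 on the log2 scale (adjusted p = 0.0489). With quantile normalization 13 of these 17 were below 0, with a median of -0.21. Their mean deviation was -0.096 to -0.067 on inhibitor arrays, against 0.032 to 0.187 on vehicle arrays. The separation seen for classes of members is therefore not particular to them. So 1 of 15 and 1 of 17 genes were called in these lists, against 5.45% of all genes. Both calls were lost with median centring (adjusted p = 0.343 for SUCLG2 and 0.326 for PHB2). Leaving out 1 sample put the adjusted p between 0.0475 and 0.128 for SUCLG2, which passed only without vehicle replicate 1, and between 0.0601 and 0.184 for PHB2.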

How the data were processed

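Per the file headers, the deposited table holds a signal intensity and a detection p-value for 47321 probes on each of 6 arrays, not normalized. The deposited processed values are on a log2-like scale of unstated base, and the submitters' processing notes name lumi. Groups and replicate numbers came from the labels, which do not say whether samples came from separate cultures, and the p-values then reflect sample-to-sample spread alone, which may be technical.

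Here the normexp background model of limma 3.58.1 (R 4.3.3) was fitted from the detection p-values with an offset of 16, and intensities were then quantile normalized and put on a log2 scale. The filter required detection at p below 0.05 on 3 or more arrays (19958 probes passed), so some passed through 1 group. The brightest kept probe stood for a gene (11582), and lmFit and eBayes with Benjamini-Hochberg adjustment tested inhibitor against vehicle. Symbols came from the platform annotation (30112 probes with 1 symbol, 8 with several, 17201 with none). The number of arrays limits precision. The fit was tested on simulated data.

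Named genes were members past the threshold, the highest and lowest of each class, preset isoforms, members with probes of opposite sign of which 1 had an unadjusted p under 0.05, and in each other list those past the threshold or the 2 of smallest p. NDUFA9, second probes and other genes outside this rule were chosen after their values were seen. Members and lists were chosen with earlier results of these data known. Samples with the same replicate number had deviations that correlated at -0.142, 0.0204 and 0.118, so no pairing was shown. Alternatives changed background, normalization, filter, probe choice, variance prior and samples.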

Additional observations from a re-analysis of the deposited data

How the results depend on the processing

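Over 16 alternatives the median of the members minus that of all genes kept its sign, from -0.15 to -0.06, and 0 called values reversed. COX11 stayed higher past the threshold in 12 of 16 and COX19 in 11 of 16. With the replicate block, 0 members were higher (adjusted p = 0.0526 for COX11 and 0.0658 for COX19), and leaving out 1 sample gave 0 to 2. Members lower numbered 2 with no background correction and 3 with the deposited processed values. Against 416 genes higher and 215 lower in all, there were 816 and 541 with no background correction, 816 and 539 with the deposited processed values, 725 and 451 with an offset of 50, 762 and 478 with a trend and robust prior, and 28 and 12 with the replicate block. Median centring gave 675 and 36 and moved the median of all genes to 0.24 and of members to 0.09. The stricter detection filter gave 388 lower. Leaving out 1 sample gave 4 to 310 higher and 0 to 128 lower. The causes were not tested. Of 49 genes whose values were followed and that did not pass the threshold, 9 passed under some alternative (NDUFA6, NDUFA9, SDHD, POLG, PPARGC1A, SCO2, TFB2M, UQCC2 and VIM) and 17 crossed 0 under some alternative. The replicate numbers only name samples, so the block is given here alone, where it also ended the calls of SUCLG2 (adjusted p = 0.0739) and PHB2 (0.0836). A chip block was not run, since the headers name no chip. Dim probes such as those of ATP5MK and NDUFS1 lie near background. The COX19 probe was also dim, with a signal of 125.5, 125.7 and 205.6 on vehicle arrays. The median probe signal on those arrays was 98.5, 101.7 and 138.1.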
